A study of Gossypium hirsutum with 6 samples.

Results

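The ERF, DREB and CRF genes encode transcription factors of the AP2/ERF family of plants. They were chosen as the rows of the deposited mRNA table whose matched Arabidopsis locus is on a list of 48 loci, which leaves out the group VII ERFs and ERF1. Cotton carries an A and a D subgenome and several genes for most of these loci, and each cotton gene is called here a copy of the Arabidopsis gene it was matched to. The table held 194 copies among 70478 genes, with 97 on A chromosomes, 92 on D chromosomes and 5 on scaffolds, as the gene IDs give them. These copies were matched to 33 of the 48 loci. A total of 106 copies from 26 loci averaged 0.5 FPKM or more across all 6 libraries and were tested, among 43158 genes tested in all. FPKM divides the fragments sequenced from a transcript by its length and by the library's mapped total, so levels of different genes can be compared per length.

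The shared AP2/ERF domain binds DNA. ERF proteins are best known for binding the GCC box in promoters of ethylene- and jasmonate-induced defence genes, and DREB proteins for binding the CRT/DRE element of cold- and drought-induced genes. Some members activate transcription, as the group IX ERFs do, while others carry an EAR motif and repress it. The cytokinin response factors (CRF) act downstream of cytokinin perception. In Arabidopsis, transcripts of many members accumulate within minutes of wounding, touch, cold or a pathogen and decline soon after. These roles are those of the Arabidopsis genes and serve as background for the cotton copies.

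The samples were wild-type seedlings of upland cotton (Gossypium hirsutum), strain CCRI24. One group of 3 libraries is labelled as treated with 5 μM AZD, an inhibitor that blocks the ATP site of the growth-regulating kinase TOR, and the other 3 libraries as treated with DMSO, the solvent. Seedlings were moved to the medium at 4 d of age, kept there for 24 h and are labelled as 5 d old, and both groups shared light regime and temperature. The sources used here contradict each other on which set of libraries came from the AZD-treated seedlings, so every direction below rests on the sample labels, and AZD and DMSO name libraries by their labels. In whole seedlings, fewer cells of a type and less RNA per cell cannot be told apart.

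The libraries differed in tissue markers, and 1 library of each group stood apart in some measure. Of 14 tested copies of photosynthetic tissue markers (LHCB1.3, LHCB2.1, LHCA1 and PSBO2), 10 were higher in AZD with limma at an adjusted p under 0.05 (71.4%, against 1.89% of all tested genes). The summed level of the 14 was 11316 to 12625 FPKM in AZD and 2168 to 4402 FPKM in DMSO. None of 21 copies of root markers (EXPA7, RHD6, CASP1, CASP2, PHO1 and WOX5) reached the filter, and no marker summed over its copies exceeded 1.94 FPKM in any library, so the root part of a seedling was not seen through these genes. Of the seed markers, the copies of CRU3 and OLEO1 summed to at most 1.49 FPKM per gene in AZD and 3.12 FPKM in DMSO. DMSO replicate 1 was the highest of the 6 libraries in 36 of the 106 tested copies (34.0%, against 20.1% of all tested genes). The FPKM of all genes summed to 2773880 in AZD replicate 2, against 6222402 and 5894694 in the other AZD libraries and 4236812 to 4355426 in DMSO. Without the 3 genes of highest mean the sums were 1622401, 1219652 and 1574693 in AZD replicates 1 to 3 and 1125937 to 1381455 in DMSO. AZD replicate 2 was the highest of the 6 libraries in 13 tested copies and the lowest in 16. The part of these differences in the results below was not tested, beyond the values with a library left out.

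In the share past the test, the ERF, DREB and CRF copies as a whole were near all tested genes. With limma, 6 of 106 tested copies passed an adjusted p of 0.05 (5.66%, against a background of 4.69% of all tested genes), and 100 did not. A single copy was higher in AZD (0.943%, background 1.89%) and 5 were lower (4.72%, background 2.80%). The ERF2 copy among the lower ones reached the filter only through its DMSO libraries. The median log2 fold change, AZD minus DMSO, was −0.08 over the copies and −0.01 over all tested genes. The copies spread more widely than genes at large, with 16.0% at 2-fold or more against 8.92% of all tested genes. Of those copies, 14 were lower and 3 higher by this size. The 14 include ERF2 Gh_Sca006892G01, TINY2 Gh_D05G0489 and ESE3 Gh_D07G0308, which reached the filter only through their DMSO libraries.

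Without a correction for multiple tests, copies on the low side were more frequent than on the high side. At an unadjusted p under 0.05, 21 copies were lower in AZD (19.8%, against 11.9% of all tested genes) and 5 were higher (4.72%, against 11.4%). The AZD and DMSO libraries did not overlap in 32 copies, a share of 30.2% against a background of 30.0%. In 24 of them all AZD libraries lay below all DMSO libraries (22.6%, background 15.5%), and in 8 they lay above (7.55%, background 14.5%). The 24 include copies that reached the filter only through their DMSO libraries, such as TINY2 Gh_D05G0489 and Gh_D08G2605, ERF1A Gh_D12G2133 and ESE3 Gh_D07G0308. The FPKM of the tested copies summed to 553, 565 and 600 in AZD replicates 1 to 3 and to 782, 539 and 644 in DMSO replicates 1 to 3. The groups overlapped in this sum, and DMSO replicate 1 had the highest value. By their mean level over the 6 libraries, 19 copies stood at 10 FPKM or more and 36 under 2 FPKM, with a median of 3.70 FPKM against 3.95 FPKM for all tested genes.

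**Figure D1:**
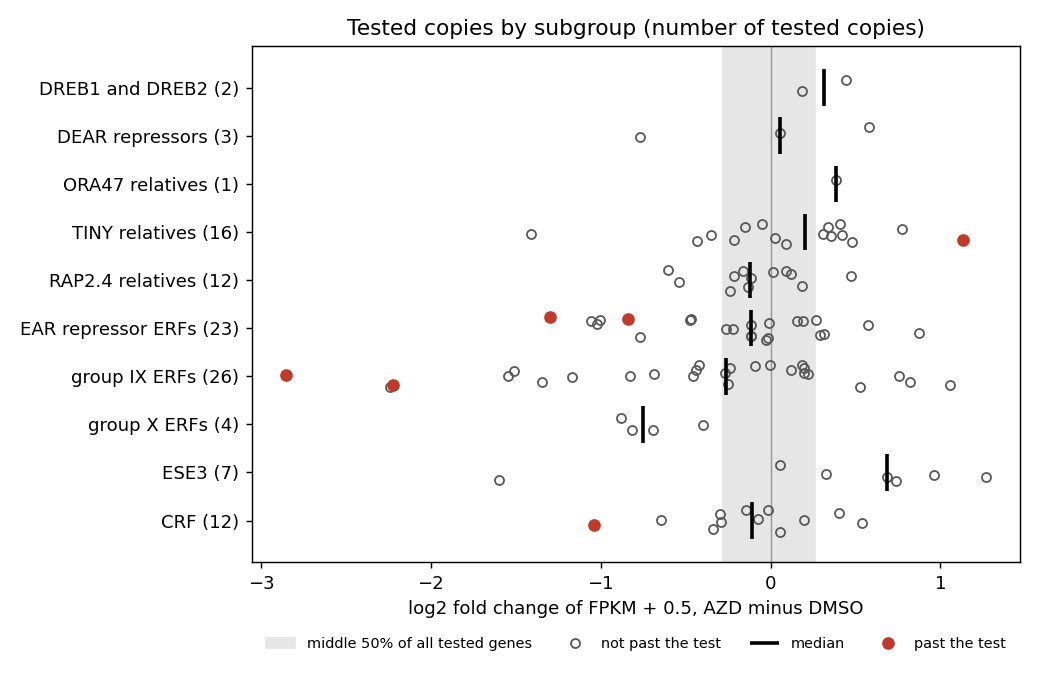
Log2 fold change of FPKM + 0.5 (x axis, AZD minus DMSO) for each of the 106 tested copies, by subgroup (y axis, with the number of tested copies in brackets). Open circles did not pass the test, filled circles did, black lines are subgroup medians and the grey band holds the middle 50% of all tested genes, from −0.28 to 0.26. The lowest point is an ERF1A copy at −2.85, and the subgroup medians run from −0.75 in group X to 0.68 in ESE3.

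The EAR repressor ERFs held the call that survived the omission of a library most often. This subgroup covers ERF3, ERF4, ERF7, ERF8, ERF9 and ERF12, which repress GCC-box genes in Arabidopsis, and 23 of its 24 copies were tested. Copies with consecutive ID numbers on chromosomes A10 and D10 were low in AZD, while the most abundant copy, of ERF7, was not. Of the 23, 2 copies of ERF9 passed the test, both lower (8.70%, against 2.80% of all tested genes), and the subgroup median was −0.12. All AZD libraries lay below all DMSO libraries in 8 copies (34.8%, background 15.5%) and above them in 2 (8.70%, background 14.5%).

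ERF9 (AT5G44210), a repressor of defence genes, was lowest relative to DMSO in its copy Gh_D10G0255. This copy had 3.57, 4.04 and 4.32 FPKM in the AZD libraries, against 10.5, 9.72 and 11.3 FPKM in the DMSO libraries. The replicates of each group lay close together and the groups did not overlap. The means were 3.98 ± 0.376 FPKM in AZD and 10.5 ± 0.774 FPKM in DMSO (SD, n = 3 each), and the log2 fold change was −1.299 (SE 0.124, limma adjusted p = 0.00836). It stayed past the test when any library but AZD replicate 1 was left out, and without that library the adjusted p was 0.0513. The ERF9 copy of the same number on the other subgenome, Gh_A10G0255, stood at 9.31, 11.0 and 12.1 FPKM in AZD, against 21.1, 16.6 and 21.6 FPKM in DMSO. Its groups were also separate, at −0.84 on the log2 scale (SE 0.162, adjusted p = 0.0422). This call held only without DMSO replicate 2 (adjusted p = 0.0496), and without each of the other 5 libraries the adjusted p was 0.0592 to 0.160.

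ERF12 (AT1G28360), another EAR repressor, has its only copies next to these ERF9 copies by ID number. Gh_D10G0254 had 2.41, 2.16 and 1.33 FPKM in AZD, against 4.23, 3.92 and 5.63 FPKM in DMSO (log2 fold change −1.06, adjusted p = 0.0521). Gh_A10G0254 had 2.06, 2.70 and 1.50 FPKM in AZD, against 5.11, 5.12 and 3.71 FPKM in DMSO (log2 fold change −1.01, adjusted p = 0.0542). Both copies were separate between the groups and neither passed the test. With a filter at a mean of 1 FPKM, which tests fewer genes, both passed (adjusted p = 0.0472 for Gh_D10G0254 and 0.0490 for Gh_A10G0254). The copies of ERF12 and the consecutive ERF9 are named together because of their numbers, a choice made after their values were seen.

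The other copies of these repressors went both ways. Another low copy of ERF9 was Gh_A03G1376 (log2 fold change −1.02, adjusted p = 0.0679), whereas Gh_D09G0712, also ERF9, lay on the high side (0.58, adjusted p = 0.0874), and both had separate groups. ERF4 (AT3G15210), which restrains ethylene- and ABA-responsive transcription, had the highest fold change of the subgroup in Gh_D06G2166. That copy had 4.16, 4.46 and 4.17 FPKM in AZD, against 2.86, 1.83 and 1.73 FPKM in DMSO (log2 fold change 0.88, SE 0.183, adjusted p = 0.0513). The groups did not overlap, and the copy passed the test without DMSO replicate 1 (adjusted p = 0.0120), with a pseudocount of 1 (0.050), with a filter at 1 FPKM (0.0461) and after quantile normalization (0.0469). ERF7 (AT3G20310), a repressor in ABA responses, was the most abundant of the subgroup. Its copy Gh_A01G0650 had 26.5, 33.0 and 21.5 FPKM in AZD, against 22.1, 22.9 and 21.2 FPKM in DMSO, and the groups overlapped (log2 fold change 0.27, adjusted p = 0.419).

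**Figure D2:**
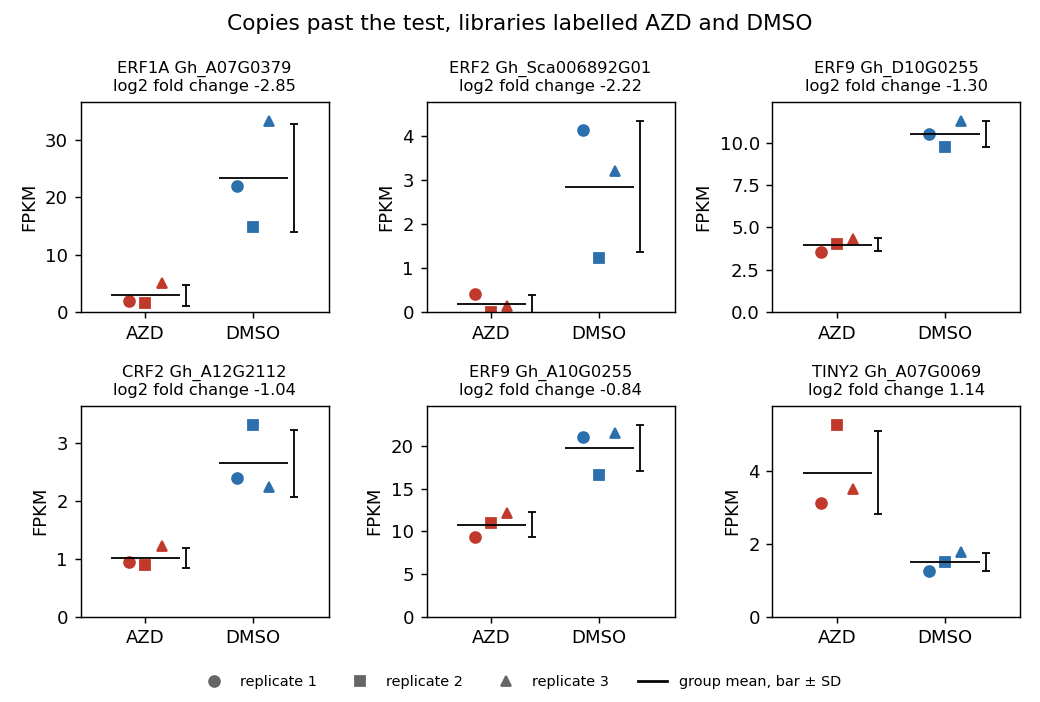
FPKM (y axis) of the 6 copies past the test in each library (symbols by replicate), AZD left and DMSO right of each panel, with the group mean as a line and the SD as a bar beside it (n = 3 each, the lower end of the bar cut at 0). Both groups are separate in all 6 panels, and TINY2 is the only one with the higher level in AZD.

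The group IX ERFs, activators of GCC-box genes, held the lowest values and also high ones. The subgroup covers ERF1A, ERF2, ERF5, ERF105 and ERF106, with 26 of 35 copies tested. Copies on chromosomes A07 and D07 had far lower means in AZD than in DMSO, and copies on A11 and D11 did not. Of the 26, 2 passed the test, both lower (7.69%, against 2.80% of all tested genes), and 5 had all AZD libraries below all DMSO libraries, a share of 19.2% against a background of 15.5%. None had all AZD libraries above all DMSO libraries (background 14.5%). The median was −0.26. The ERF2 copy past the test and ERF1A copy Gh_D12G2133, both among the 5, reached the filter only through their DMSO libraries. The subgroup's FPKM summed to 97.9, 84.9 and 142 in AZD and to 212, 100 and 160 in DMSO, so the groups overlapped.

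ERF1A (AT4G17500), an activator of defence genes, had the lowest log2 fold change of all tested copies on the log2(FPKM + 0.5) scale in Gh_A07G0379. It had 2.04, 1.69 and 5.08 FPKM in the AZD libraries, against 22.0, 14.8 and 33.3 FPKM in the DMSO libraries. The highest AZD library lay well under the lowest DMSO library. The means were 2.93 ± 1.86 FPKM in AZD and 23.4 ± 9.33 FPKM in DMSO (SD, n = 3 each), and the log2 fold change was −2.85 (SE 0.432, adjusted p = 0.0247). It did not pass without AZD replicate 1 (adjusted p = 0.111), AZD replicate 2 (0.0950) or DMSO replicate 3 (0.0700). The ERF1A copy Gh_D07G0442 had 0.679, 0.845 and 1.44 FPKM in AZD, against 10.1, 2.68 and 9.03 FPKM in DMSO. Its groups were separate as well, and it just missed the threshold (log2 fold change −2.24, SE 0.482, adjusted p = 0.0543). It passed with a pseudocount of 0.1 (0.0494) and without DMSO replicate 2 (0.0134), but not without any other single library (0.0813 to 0.187).

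ERF2 (AT5G47220), a close relative of ERF1A that also activates defence genes, had 1 tested copy of 3, Gh_Sca006892G01 on a scaffold. It had 0.418, 0 and 0.136 FPKM in AZD, against 4.13, 1.22 and 3.20 FPKM in DMSO. All AZD libraries were near 0 and below the lowest DMSO library (log2 fold change −2.22, SE 0.427, adjusted p = 0.0422). The added 0.5 FPKM makes this fold change smaller than the ratio of the levels. With a pseudocount of 0.1 it was −3.52, below the −3.04 of ERF1A Gh_A07G0379. The call held only without DMSO replicate 2 (adjusted p = 0.0271), and without each of the other 5 libraries the adjusted p was 0.0621 to 0.135. The copy reached the filter only through its DMSO libraries, with means of 0.185 FPKM in AZD and 2.85 FPKM in DMSO. When no filter was applied it did not pass the test.

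ERF105 (AT5G51190), which cold and stress induce in Arabidopsis, and ERF106 (AT5G07580), a relative, sit beside the ERF1A copies of A07 and D07 by ID number. ERF105 copy Gh_A07G0378 had 5.69, 5.48 and 14.6 FPKM in AZD, against 30.3, 13.6 and 29.3 FPKM in DMSO (log2 fold change −1.51, adjusted p = 0.118). ERF105 copy Gh_D07G0441 had 1.10, 1.53 and 3.86 FPKM in AZD, against 7.61, 3.18 and 4.88 FPKM in DMSO (log2 fold change −1.17, adjusted p = 0.182). In both copies AZD replicate 3 was above DMSO replicate 2, so the groups overlapped. ERF106 copy Gh_D07G0440 had 1.43, 1.24 and 3.93 FPKM in AZD, against 13.4, 1.48 and 13.0 FPKM in DMSO (log2 fold change −1.55, adjusted p = 0.311). Across these copies AZD replicate 3 was the highest of its group and DMSO replicate 2 the lowest of its group, the same order as in both ERF1A copies.

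The set on A11 and D11 had another pattern. ERF106 copy Gh_A11G0367, which had the highest fold change of group IX, stood at 8.72, 6.45 and 10.4 FPKM in AZD, against 9.26, 2.65 and 2.02 FPKM in DMSO (log2 fold change 1.06, SE 0.509, adjusted p = 0.273). The ERF1A copy numbered before it, Gh_A11G0366, had 7.84, 5.57 and 11.6 FPKM in AZD, against 9.32, 2.93 and 3.29 FPKM in DMSO. On D11, ERF1A copy Gh_D11G0426 and ERF106 copy Gh_D11G0427 had log2 fold changes of 0.22 and 0.82. In all 4 copies DMSO replicate 1 was at least as high as an AZD library and over 2 times each of the other DMSO libraries. Without it, Gh_A11G0367 passed the test (log2 fold change 1.65, adjusted p = 0.0186), Gh_D11G0427 had an adjusted p of 0.0647, Gh_A11G0366 of 0.0688 and Gh_D11G0426 of 0.158.

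ERF5 (AT5G47230), which restrains leaf growth under stress in Arabidopsis, had 7 tested copies with log2 fold changes of −0.69 to 0.53, none past the test. Its copy Gh_D03G1591 passed without DMSO replicate 1 (log2 fold change 0.81, adjusted p = 0.0496). ERF1A copy Gh_A08G1502, with 0.554, 0.598 and 0.542 FPKM in AZD against 1.37, 3.89 and 1.92 FPKM in DMSO, was separate between the groups but did not pass (log2 fold change −1.35, adjusted p = 0.0689). It too passed without DMSO replicate 1.

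**Figure D3:**
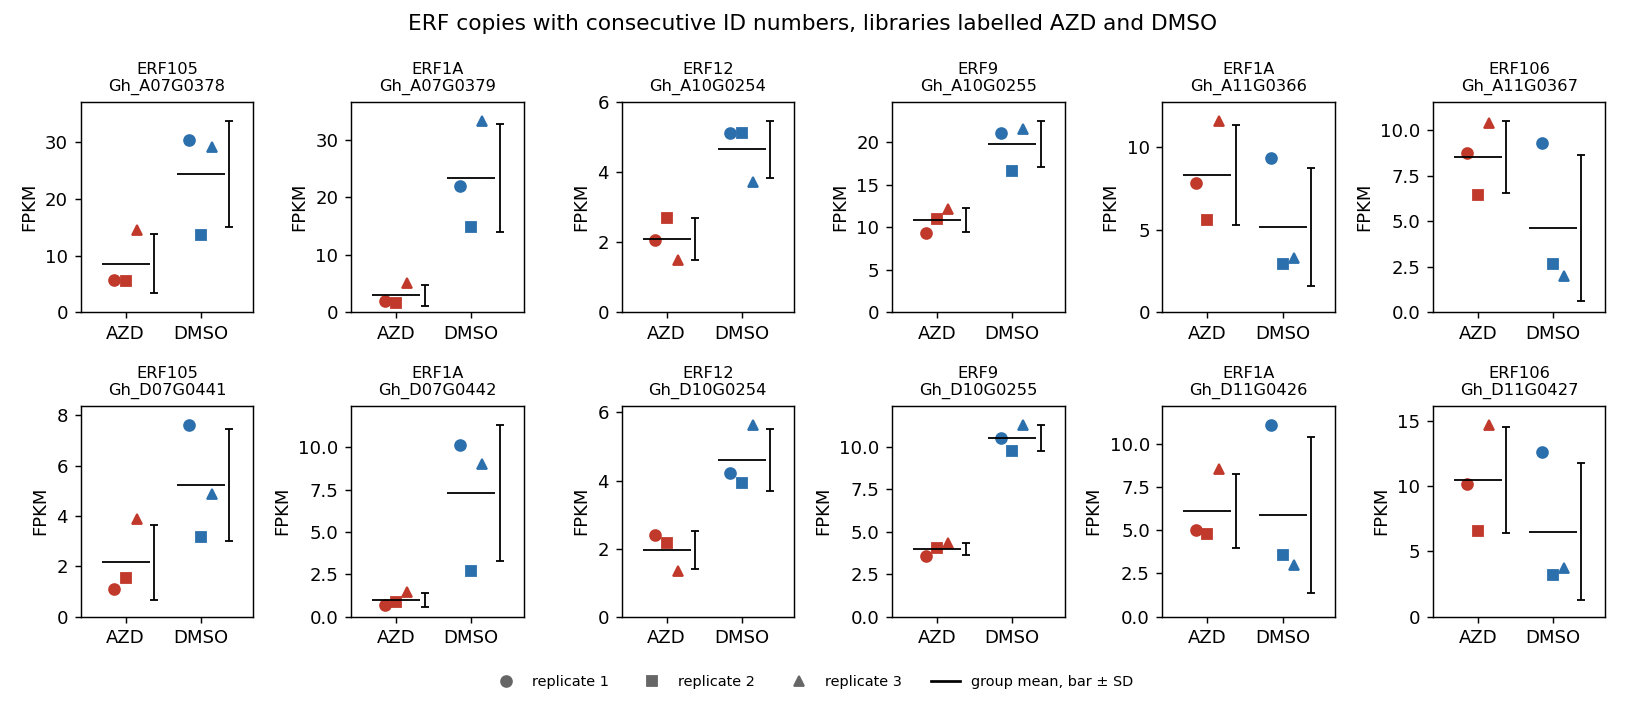
FPKM (y axis) in each library (symbols by replicate) of 12 ERF copies whose ID numbers are consecutive in pairs, with A chromosomes in the upper and D chromosomes in the lower row, AZD left and DMSO right of each panel, the group mean as a line and the SD as a bar (n = 3 each). The A07, D07, A10 and D10 copies have the lower mean in AZD. In the A11 and D11 copies DMSO replicate 1 is within the AZD range, or above it in ERF1A Gh_D11G0426. The other DMSO libraries of these copies are below every AZD library.

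Copies with consecutive ID numbers mostly had fold changes of the same sign. In all, 30 member copies fell into 11 runs of consecutive numbers, 9 of which were group IX sets, and 23 of these copies were tested. Of 9 runs with 2 or more tested copies, 8 had a single sign. How often neighbouring genes at large share a sign was not computed. The A07 and D07, A10 and D10, and A11 and D11 runs hold copies of the same genes, so the runs are not independent cases. The 4 copies numbered 0254 and 0255 on A10 and D10 had log2 fold changes of −0.84 to −1.299, and the 5 tested copies of the A07 and D07 runs had −1.17 to −2.85. The ID numbers follow the order along a chromosome by convention, and distances were not analysed here. Copies of the A and D subgenome can be nearly identical, and how reads that fit more than 1 copy were assigned is not given in the sources used here, so levels of such pairs may not be independent.

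RAP2.6L (AT5G13330) was the only gene of group X with tested copies. In Arabidopsis it responds to wounding and acts when cut tissue rejoins. All 4 copies had negative fold changes, with a median of −0.75, and none passed the test. Of these copies of a single locus, 3 were lower at an unadjusted p under 0.05, against 11.9% of all tested genes. The most abundant, Gh_A03G1349, had 7.25, 6.58 and 5.11 FPKM in AZD, against 8.81, 14.0 and 9.15 FPKM in DMSO (log2 fold change −0.69, adjusted p = 0.127). Copy Gh_D02G1788 had 3.93, 4.96 and 6.59 FPKM in AZD, against 9.12, 9.45 and 9.22 FPKM in DMSO (log2 fold change −0.81, adjusted p = 0.0624). The largest difference was in Gh_A04G0869 (log2 fold change −0.88, adjusted p = 0.149). In these 3 copies all AZD libraries lay below all DMSO libraries (75%, background 15.5%). Gh_D04G1369 overlapped, at 1.45, 1.01 and 0.750 FPKM in AZD against 0.693, 2.02 and 2.30 FPKM in DMSO. ABR1, a repressor of ABA responses with 9 copies, and ERF109, a wound- and redox-responsive factor with 2, stayed under the filter and reached at most 0.504 and 0.0690 FPKM in any library.

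ESE3 (AT5G25190), an ethylene- and salt-inducible ERF, gave results that turned on DMSO replicate 1. Of 10 copies 7 were tested, none passed, and their median log2 fold change was 0.68. The most abundant copy, Gh_A06G1924, had 22.6, 16.7 and 19.4 FPKM in AZD, against 29.7, 4.44 and 3.29 FPKM in DMSO (log2 fold change 1.27, SE 0.755, adjusted p = 0.371). Copy Gh_D05G1148 had 2.76, 2.42 and 2.83 FPKM in AZD, against 11.9, 0.269 and 0.213 FPKM in DMSO (log2 fold change 0.74, SE 1.08, adjusted p = 0.729). Copy Gh_D06G1971 had 2.64, 2.93 and 3.09 FPKM in AZD, against 7.62, 0.0925 and 0.585 FPKM in DMSO (log2 fold change 0.96, SE 0.908, adjusted p = 0.576). In each of them DMSO replicate 1 was the highest of all 6 libraries, and the other DMSO libraries were below every AZD library.

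Without DMSO replicate 1, 4 of the 7 tested ESE3 copies passed the test as higher in AZD, against a background of 4.43% of all tested genes. These were Gh_A06G1924 (log2 fold change 2.20, adjusted p = 0.00699), Gh_D05G1148 (2.096, adjusted p = 0.00615), Gh_D06G1971 (2.08, adjusted p = 0.0186) and Gh_A05G1031 (0.72, adjusted p = 0.0453). Gh_A05G1031 had 9.35, 10.8 and 8.78 FPKM in AZD, against 24.0, 5.24 and 6.08 FPKM in DMSO. Its log2 fold change was 0.05 over all 6 libraries and −0.33 without DMSO replicate 2, −0.23 without DMSO replicate 3 and −0.03 without AZD replicate 2, so its direction rested on the library left out. Not all ESE3 copies shared this pattern. Gh_A05G0469 had 2.05, 2.16 and 1.56 FPKM in AZD, against 0.746, 1.28 and 1.02 FPKM in DMSO, with separate groups (log2 fold change 0.68, adjusted p = 0.107). Gh_D07G0308, with 0.145, 0 and 0.281 FPKM in AZD against 1.18, 0.508 and 3.62 FPKM in DMSO, lay on the other side (log2 fold change −1.60, adjusted p = 0.140). That copy reached the filter only through its DMSO libraries.

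Over all tested copies, DMSO replicate 1 was more than 2 times each of the other DMSO libraries in 11 copies (10.4%, against 3.22% of all tested genes). These were 4 of ESE3, 5 of group IX and 1 each of ERF8 and ERF017. Leaving DMSO replicate 1 out raises the fold change of such copies by the way they were picked. Without this library 7 copies were higher in AZD (6.60%, background 4.43%) and 4 lower (3.77%, background 3.90%), whereas with it 1 was higher and 5 were lower. The 7 higher copies were the 4 of ESE3 and 1 each of ERF4, ERF5 and ERF106, and none of them was past the test over all 6 libraries. Of the 4 lower copies, 3 were also past the test over all 6 libraries. Leaving out any of the other libraries gave 0 higher copies, against backgrounds of 0.0997% without AZD replicate 1, 0.188% without AZD replicate 2, 0.183% without AZD replicate 3, 0.754% without DMSO replicate 2 and 0.385% without DMSO replicate 3. The lower copies numbered 0 without AZD replicate 1 (background 0.359%), 1 without AZD replicate 2 (0.424%), 2 without AZD replicate 3 (0.580%), 5 without DMSO replicate 2 (1.75%) and 1 without DMSO replicate 3 (0.754%).

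**Figure D4:**
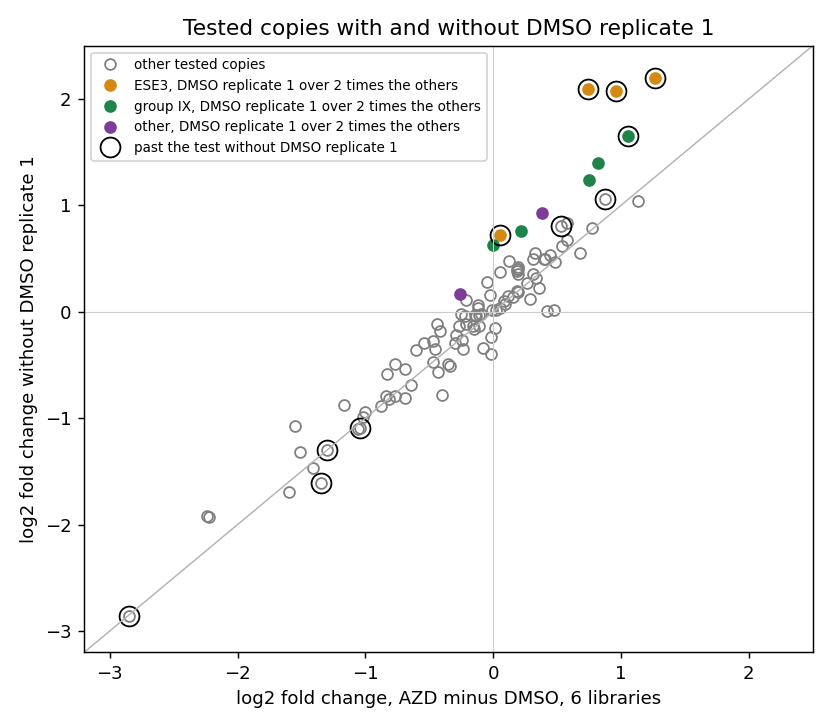
Log2 fold change (AZD minus DMSO) of each tested copy over all 6 libraries (x axis) and without DMSO replicate 1 (y axis), with the diagonal for equal values. Filled points are the 11 copies in which DMSO replicate 1 was over 2 times each of the other DMSO libraries, and ringed points pass the test without that library. All filled points lie above the diagonal, which their choice fixed in advance, since leaving out a high DMSO library raises AZD minus DMSO. Of the filled points 5 are ringed.

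The TINY relatives are DREB factors named for a gene that dwarfs Arabidopsis plants when overexpressed, and they held the only copy that was higher in AZD. Of 31 copies 16 were tested, with a median of 0.20, and 1 was higher (6.25%, background 1.89%). TINY2 (AT5G11590) copy Gh_A07G0069 had 3.10, 5.25 and 3.49 FPKM in AZD, against 1.24, 1.48 and 1.76 FPKM in DMSO. The groups did not overlap (log2 fold change 1.14, SE 0.213, adjusted p = 0.0405), but the call was lost whichever library was left out, with adjusted p of 0.0585 to 0.111. In another TINY2 copy, Gh_D05G0489, the levels were 0.503, 0.361 and 0.164 FPKM in AZD, against 1.53, 1.18 and 2.67 FPKM in DMSO (log2 fold change −1.41, adjusted p = 0.0549). The tested TINY2 copies thus lay on both sides of 0. The negative ones, Gh_D05G0489 and Gh_D08G2605, reached the filter only through their DMSO libraries. The most abundant of the subgroup was a TINY copy, Gh_D10G1003, with 11.9, 10.3 and 11.7 FPKM in AZD, against 12.0, 16.6 and 15.4 FPKM in DMSO (log2 fold change −0.35, adjusted p = 0.239).

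The RAP2.4 relatives held the most abundant copy and no copy past the test. RAP2.4 (AT1G78080), also known as WIND1, promotes dedifferentiation of cells at wounds in Arabidopsis. Its copy Gh_D06G0336 had the highest mean of all tested copies, 27.0 FPKM, with 26.7, 30.8 and 27.0 FPKM in AZD, against 26.8, 25.2 and 25.5 FPKM in DMSO (log2 fold change 0.12, adjusted p = 0.607). None of the 12 tested copies passed the test (background 4.69%) or had an unadjusted p under 0.05 (backgrounds 11.9% lower and 11.4% higher). Their fold changes ran from −0.60 to 0.47. The lowest was ERF060 copy Gh_A11G1833 (adjusted p = 0.242) and the highest ERF061 copy Gh_A11G0225 (adjusted p = 0.593). The 12 copies summed to 98.4 to 102 FPKM in AZD and 98.6 to 108 FPKM in DMSO.

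The other DREB genes were few or low. RAP2.1 (AT1G46768), a DREB factor with an EAR motif, had 3 tested copies, none past the test. Gh_D05G1963 had 17.9, 17.3 and 18.6 FPKM in AZD, against 26.8, 14.1 and 13.4 FPKM in DMSO, and Gh_A05G1769 had 21.1, 21.0 and 17.8 FPKM in AZD, against 18.9, 8.60 and 13.9 FPKM in DMSO. Both overlapped between the groups, at 0.06 (adjusted p = 0.926) and 0.58 (adjusted p = 0.270) on the log2 scale. The remaining copy, Gh_A01G0997, was at 0 to 2.01 FPKM (log2 fold change −0.77, adjusted p = 0.545) and reached the filter only through its DMSO libraries.

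Of the DREB1 and DREB2 genes, which switch on cold, drought and heat responses, only CBF4 (AT5G51990) had tested copies. CBF4 copy Gh_A12G2357 had 0.605, 0.902 and 1.06 FPKM in AZD, against 0.617, 0.531 and 0.336 FPKM in DMSO (log2 fold change 0.44, adjusted p = 0.334). Gh_D12G2494 had 0.726, 0.387 and 1.298 FPKM in AZD, against 0.987, 0.318 and 0.588 FPKM in DMSO (log2 fold change 0.19, adjusted p = 0.80). Both were near the filter and overlapped between the groups. The 6 copies of CBF1 were listed at 0 in every library, and the 4 copies of DREB2A reached at most 0.324 FPKM. Among the relatives of ORA47, 1 of 11 copies of ERF017 was tested, Gh_A05G0262, with 0, 1.76 and 1.18 FPKM in AZD, against 1.52, 0 and 0.343 FPKM in DMSO (log2 fold change 0.39, adjusted p = 0.797).

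The cytokinin response factors had 1 of 12 tested copies past the test, a lower one (8.33%, background 2.80%). The subgroup has 25 copies, and those tested had a median of −0.11, and 2 of the 3 copies of CRF11 were the most abundant. CRF2 (AT4G23750) copy Gh_A12G2112 had 0.942, 0.894 and 1.21 FPKM in AZD, against 2.38, 3.30 and 2.24 FPKM in DMSO. The groups were separate at a low level (log2 fold change −1.04, SE 0.185, adjusted p = 0.0360). This call held only without DMSO replicate 1 (adjusted p = 0.0410), and without each of the other 5 libraries the adjusted p was 0.0736 to 0.141. The highest fold change was in another CRF2 copy, Gh_D05G3205, with 3.67, 7.03 and 3.30 FPKM in AZD, against 3.29, 2.36 and 3.08 FPKM in DMSO (log2 fold change 0.54, adjusted p = 0.309). CRF11 copy Gh_A12G2630 had 16.1, 16.8 and 14.9 FPKM in AZD, against 21.9, 17.2 and 20.0 FPKM in DMSO, with separate groups and a small difference (log2 fold change −0.29, adjusted p = 0.254).

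The 88 copies under the filter included 24 listed at 0 in all 6 libraries, and none of them exceeded 1.40 FPKM in any library. No copy of CBF1, DREB2A, ERF016, ERF109, ABR1, CRF4 or CRF10 was tested. The 15 loci that matched no row analysed here were those of ERF6, ERF11, ERF104, ERF107, RAP2.6, ORA47, DDF1, DEAR1, DEAR2, DEAR4, DEAR5, ERF056, RAP2.13, CRF1 and CRF12.

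Genes upstream and downstream of these factors were followed with 5 further lists. Among the GCC-box defence genes, 2 of 21 tested copies passed, both lower in AZD (9.52%, against 2.80% of all tested genes), although the median of the list was 0.41. All AZD libraries lay below all DMSO libraries in 3 copies and above them in 3 (14.3% each way, backgrounds 15.5% and 14.5%). OSM34, an osmotin-like antifungal protein, had 20.8, 12.3 and 20.9 FPKM in AZD, against 53.8, 85.7 and 57.4 FPKM in DMSO in its copy Gh_D12G2247 (log2 fold change −1.85, SE 0.277, adjusted p = 0.0244). HEL, a hevein-like chitin-binding protein, had 0.245, 0.753 and 1.18 FPKM in AZD, against 5.56, 2.58 and 3.26 FPKM in DMSO in its copy Gh_D13G1817 (log2 fold change −1.83, SE 0.375, adjusted p = 0.0494). Both were separate between the groups. The highest fold change of the list was in CHI-B, a basic chitinase, whose copy Gh_D01G1682 had 14.2, 11.4 and 21.5 FPKM in AZD, against 8.51, 1.67 and 1.67 FPKM in DMSO, with separate groups, but did not pass (log2 fold change 2.17, SE 0.585, adjusted p = 0.0909). OSM34 passed only without DMSO replicate 1 (adjusted p = 0.0236) or DMSO replicate 2 (0.0486), with 0.0677 to 0.0874 without each of the others, and HEL lost its call whichever library was left out (0.0678 to 0.140).

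Of the DREB targets, cold- and drought-regulated genes such as COR47, 0 of 7 tested copies passed with limma (background 4.69%). At an unadjusted p under 0.05 there were 0 (backgrounds 11.9% lower and 11.4% higher), and the median was −0.08. Only 6 of the 15 loci on that list had a copy. Of the upstream regulators, which include ICE1, the CAMTA factors, EIN3 and the kinases MPK3 and MPK6, 1 of 47 tested copies passed, as lower, a share under the background of 2.80%. It was of DRIP2, a ubiquitin ligase that marks DREB2A for breakdown in Arabidopsis. DRIP2 copy Gh_A11G2250 had 2.30, 1.80 and 2.02 FPKM in AZD, against 3.62, 3.42 and 3.27 FPKM in DMSO, with separate groups (log2 fold change −0.64, SE 0.130, adjusted p = 0.0489). The call was lost whichever library was left out (0.0689 to 0.149), and the list's median was −0.14. All AZD libraries lay below all DMSO libraries in 12 copies of the list (25.5%, background 15.5%) and above them in 4 (8.51%, background 14.5%).

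Of the genes that respond to touch and wounding within minutes, 2 of 63 tested copies passed, both lower in AZD (3.17%, background 2.80%), with a median of 0.03. TCH4, a xyloglucan-modifying enzyme induced by touch, had 1.62, 1.92 and 2.80 FPKM in AZD, against 47.5, 10.5 and 33.3 FPKM in DMSO in its copy Gh_D08G0272 (log2 fold change −3.35, SE 0.536, adjusted p = 0.0282). As in the ERF1A copies of A07 and D07, AZD replicate 3 was the highest of its group and DMSO replicate 2 the lowest. TCH3, a calmodulin-like protein, had 2.85, 3.56 and 2.54 FPKM in AZD, against 7.46, 8.59 and 6.46 FPKM in DMSO in its copy Gh_A08G1197 (log2 fold change −1.20, SE 0.165, adjusted p = 0.0200). Without 1 library, TCH4 passed only when DMSO replicate 1 (0.0300) or DMSO replicate 2 (0.00489) was left out, and its adjusted p was 0.0877 to 0.121 otherwise. TCH3 did not pass without AZD replicate 1 (0.0992), AZD replicate 2 (0.0543) or AZD replicate 3 (0.0749). Of the type-A response regulators, which cytokinin induces, 0 of 12 tested copies passed with limma (background 4.69%), with a median of 0.13. At an unadjusted p under 0.05 there were 0 (backgrounds 11.9% lower and 11.4% higher).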

How the data were processed

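RNA of 6 cotton seedling libraries was sequenced by the authors, 3 labelled AZD and 3 labelled DMSO, which the study calls biological repeats. Per the study's methods, the authors used TopHat2 for mapping, Cufflinks for assembly and Cuffdiff for comparing groups, and deposited FPKM values per gene on a linear scale. Their versions, the genome build and any rescaling between libraries are not given in the sources used. The labels name an Illumina TruSeq kit and the methods a directional NEB kit, so overlapping antisense genes may share reads. Read counts per gene were not used here. From the steps between low values, the depth implied by the FPKM was computed relative to DMSO replicate 1. It was 1.01, 0.921 and 1.03 in AZD replicates 1 to 3, and 1.15 and 1.46 in DMSO replicates 2 and 3. The clean read totals that the study reports per library follow another order, and the difference was not examined. All 6 value columns were used and 0 were left out.

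A limma trend fit (limma 3.58.1, R 4.3.3) of log2(FPKM + 0.5) gave the fold changes of genes that averaged 0.5 FPKM or more. Its two-sided p-values were adjusted by Benjamini-Hochberg across the 43158 genes fitted, and a gene is called higher or lower at an adjusted p under 0.05. For any single gene, the smallest p of an exact permutation test between 3 and 3 libraries is 0.1. Tables were read in Python 3.11.15, pandas 2.3.3 and numpy 2.4.6. The fit was tested on simulated data.

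Named copies are those past the test, and in each subgroup the copy with the highest mean and those with the largest positive and negative fold change. Of other lists, the copies past the test are named. Further copies were added after their values were seen (copies with consecutive ID numbers, copies in which DMSO replicate 1 stood apart, those just short of the threshold, CHI-B Gh_D01G1682 and the other copies of a named gene). The members and lists were chosen with earlier results of these data known. As alternatives, the pseudocount was set to 0.1 or 1, the filter was dropped or raised to 1 FPKM, libraries were rescaled by median-of-ratios factors or quantile normalized, limma ran without its trend or with replicate numbers as a block, single libraries were left out, and the limits in the study's methods (a p of at most 0.8 and a 2-fold ratio of means) were applied. Gene names are those of matched Arabidopsis loci, since 0 of the gene IDs occur in the reference table of gene symbols.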

Additional observations from a re-analysis of the deposited data

How the results depend on the processing

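The main count was 1 copy higher and 5 lower in AZD. The higher count became 2 with a pseudocount of 1, a filter at a mean of 1 FPKM or quantile normalization, 0 without a filter (5 at an unadjusted p under 0.05), and 0 to 7 when a library was left out (4 to 20 unadjusted). The lower count became 2 without a filter, 4 without trend and 0 to 5 when a library was left out (15 to 25 unadjusted). A filter at a mean of 1 FPKM kept the 5 lower copies and added 2, and a pseudocount of 0.1 kept them and added 1. Under the limits of the study's methods, 2 copies were higher and 18 lower. The limits were applied to the limma p and the ratio of mean FPKM, not to Cuffdiff p-values and read counts as in the study. The share of all tested genes within these limits was not computed, so the counts have no background. The causes of these shifts were not tested.

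With the replicate number as a block, 0 copies were higher (6 unadjusted) and 1 lower, ERF1A Gh_A07G0379 (adjusted p = 0.0388). The numbers did not pair the libraries (correlations of deviations 0.0182, −0.0421 and −0.0880). The block left 0 lower copies of the GCC-box, upstream, and touch and wound lists (3, 3 and 6 unadjusted).

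For the further lists the alternatives were chosen after seeing the data. The lower GCC-box count of 2 became 1 with a pseudocount of 0.1, median-of-ratios rescaling or no trend, and 0 to 2 with a library left out. The lower upstream count of 1 became 0 without a filter, with quantile normalization or without trend (7, 6 and 6 unadjusted), and 0 with any library left out. The lower touch and wound count of 2 became 0 to 2. Counts of higher copies were 0 to 3 for GCC-box genes and 0 to 2 for touch and wound genes with a library left out, the most without DMSO replicate 1.

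With a library left out, 24 of the 106 tested copies changed sign at least once. None of them was past the test, and their lowest adjusted p over all 6 libraries was 0.618. They include ESE3 Gh_A05G1031, which passed without DMSO replicate 1, and ERF1A Gh_D11G0426 (−0.10 without DMSO replicate 3). Of the copies named by rule, the log2 fold change of ERF017 Gh_A05G0262 was −0.075 (without DMSO replicate 2) to 1.04, that of RAP2.1 Gh_D05G1963 −0.12 (without DMSO replicate 3) to 0.37, and that of CBF4 Gh_D12G2494 −0.075 (without AZD replicate 3) to 0.435. Over the copies named by rule and all alternatives, 360 values kept direction and side of the threshold, 70 no longer passed, 6 newly passed and 6 turned. Many of these copies did not pass over all 6 libraries, and they count as kept while they stay short of the threshold. Only copies past the test can lose a call, so the 70 fall on these alone. Another scaling moved the median of all genes to at most 0.03. Depth per copy was not used, and copies near 0.5 FPKM rest on few fragments.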
